A study of Mus with 4 samples.

Results

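The genes described here are 38 genes of autophagy and of the mTORC1 pathway, chosen by name: the core autophagy machinery from the ULK1 complex to the LC3 and GABARAP proteins, the cargo receptor p62, and the kinase mTOR with the regulators that hold it on the lysosome. Of the 38 genes, 36 were matched to the array, by 60 of the 41166 probes tested, and *Atg9a* and *Pik3r4* were not analysed here. They were followed in Six2+ nephron progenitor cells of embryonic day 15.5 mouse kidneys labelled as knockout or wild type for the prorenin receptor (PRR, gene *Atp6ap2*). *Mut* embryos were Six2 Cre+/PRR flox/flox and *WT* embryos were their Six2 Cre+/PRR+/+ littermates, so both carried the *Six2GFPCre TGC* transgene, in which *Six2* regulatory sequence drives a GFP-Cre fusion in nephron progenitors and, by inheritance of the deletion, their epithelial descendants. Cells were sorted by GFP, which marks the transgene and not the loss of PRR, and each RNA sample was a pool of kidneys. *Mut* pools 1, 2 and 3, labelled with Cy3, were hybridized on arrays 1, 2 and 3 against *WT* pools 1, 2 and 3 in Cy5. Array 4, referred to as the *WT* vs *WT* array, held *WT* pool 1 in Cy5 against *WT* pool 2 in Cy3. Because no dye swap was made, genotype and dye cannot be told apart within arrays 1 to 3.

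Autophagy encloses cytoplasm in a double membrane and delivers it to the lysosome. The ULK1 kinase complex starts the process, a class III PI3-kinase complex marks the membrane with PI3P, WIPI proteins read that mark, and 2 ubiquitin-like systems attach LC3 and GABARAP proteins to the growing membrane, where they capture cargo receptors. mTORC1, the growth kinase complex, holds this process back when amino acids are plentiful. It is brought to the lysosome by Rag GTPases anchored on the Ragulator complex and is switched on there by Rheb, which the TSC complex keeps in check. The V-ATPase, the proton pump that acidifies the lysosome and of which PRR is an accessory subunit, takes part in this amino acid signal. Nephron progenitors of the cap mesenchyme depend on controlled growth signals to balance renewal and differentiation.

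Values are log2 *Mut*/*WT* ratios within an array, so a negative value means a lower signal in *Mut*. The direction rests on the dye labels. *Atp6ap2* itself, held by 1 probe, was at -0.08, -0.19 and -0.25 on arrays 1, 2 and 3 (mean -0.17, adjusted P = 0.0351, limma). It passed the test as lower, but it was also at -0.19 between the *WT* pools of array 4, at 0.02 with a dye term taken from that array, and its *Mut* and *WT* levels overlapped. The loss of PRR RNA that the study checked by RT-PCR was not analysed here. A probe passed the test at a Benjamini-Hochberg adjusted P under 0.05 (limma, over all probes), and was called differentially expressed if it also changed by more than 1.5-fold, or 0.585 on the log2 scale. Where a gene had several probes, the brightest stands for it. Each P value rests on the spread between these pools after limma has drawn each probe's variance toward that of all probes. The SE is taken from this moderated variance, so it can differ from what the SD of a gene gives. Between 45.1% and 49.5% of probes were well above background in the *Mut* channels and between 54.2% and 58.4% in the *WT* channels of arrays 1 to 3, and 0 spots were saturated. The arrays hold 3 ratios per probe, and this number limits the precision of every value.

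By their brightest probes 26 of the 36 genes were lower and 10 higher in *Mut*. Of the 36, 17 (47.2%) passed the test as lower and 0 as higher, where 18.6% of the 16355 named genes passed as lower and 14.4% as higher. At an unadjusted P under 0.05 (limma) 19 were lower and 2 higher, *Tsc2* and *Atg16l1*, beside 23.9% and 20.1% of the named genes. *Rraga* (1.84-fold lower) was the only gene called, 2.78% of the members against 1.59% of the named genes called lower and 0.434% called higher. The member median was -0.16, against -0.0031 over the named genes. In both channels of arrays 1 to 3, 35 of 36 members were well above background, against 57.2% of the named genes, and when both were limited to such probes 16 of 35 members passed as lower, beside 27.9% of the named genes. The normalized *Mut* and *WT* levels of arrays 1 to 3 did not overlap for 23 genes, 19 with *Mut* below *WT* and 4 with *Mut* above, beside 22.9% and 17.9% of the named genes. Less RNA per cell and fewer cells of a kind cannot be told apart in pooled cells.

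By role, all 5 genes of the LC3 and GABARAP family, the cargo receptor *Sqstm1*, 2 of 3 ATG4 proteases, 2 of 3 genes of lipid supply and PI3P reading, 2 of 3 Rag-Ragulator genes and, of *Mtor* and *Rptor*, *Rptor* passed as lower. Of the ubiquitin-like conjugation genes 1 of 6 did, of the ULK1 complex 1 of 5, of the class III PI3-kinase complex 2 of 5, and of *Rheb*, *Tsc1* and *Tsc2* none. The count of 17 depended on the values and the scaling: 8 genes passed as lower with the log ratios as deposited (5.63% of the named genes), 1 (*Rraga*) with the dye term (0.697%), and 0 with each array centred on its median in place of loess or with normexp without its offset (0% for both). The dye term rests on the *WT* vs *WT* array alone, which lowers the precision of every value it enters. A gene lost with it need not have a smaller ratio. With the dye term 28 members were lower, where 26 were without it, at a median of -0.12 in place of -0.16. Without array 1, 2 or 3 the counts of genes that passed as lower were 16, 13 and 17, beside 14.9%, 12.8% and 18.1% of the named genes. *Atg12* was lost and *Tsc1* gained without array 3.

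**Figure D1:**
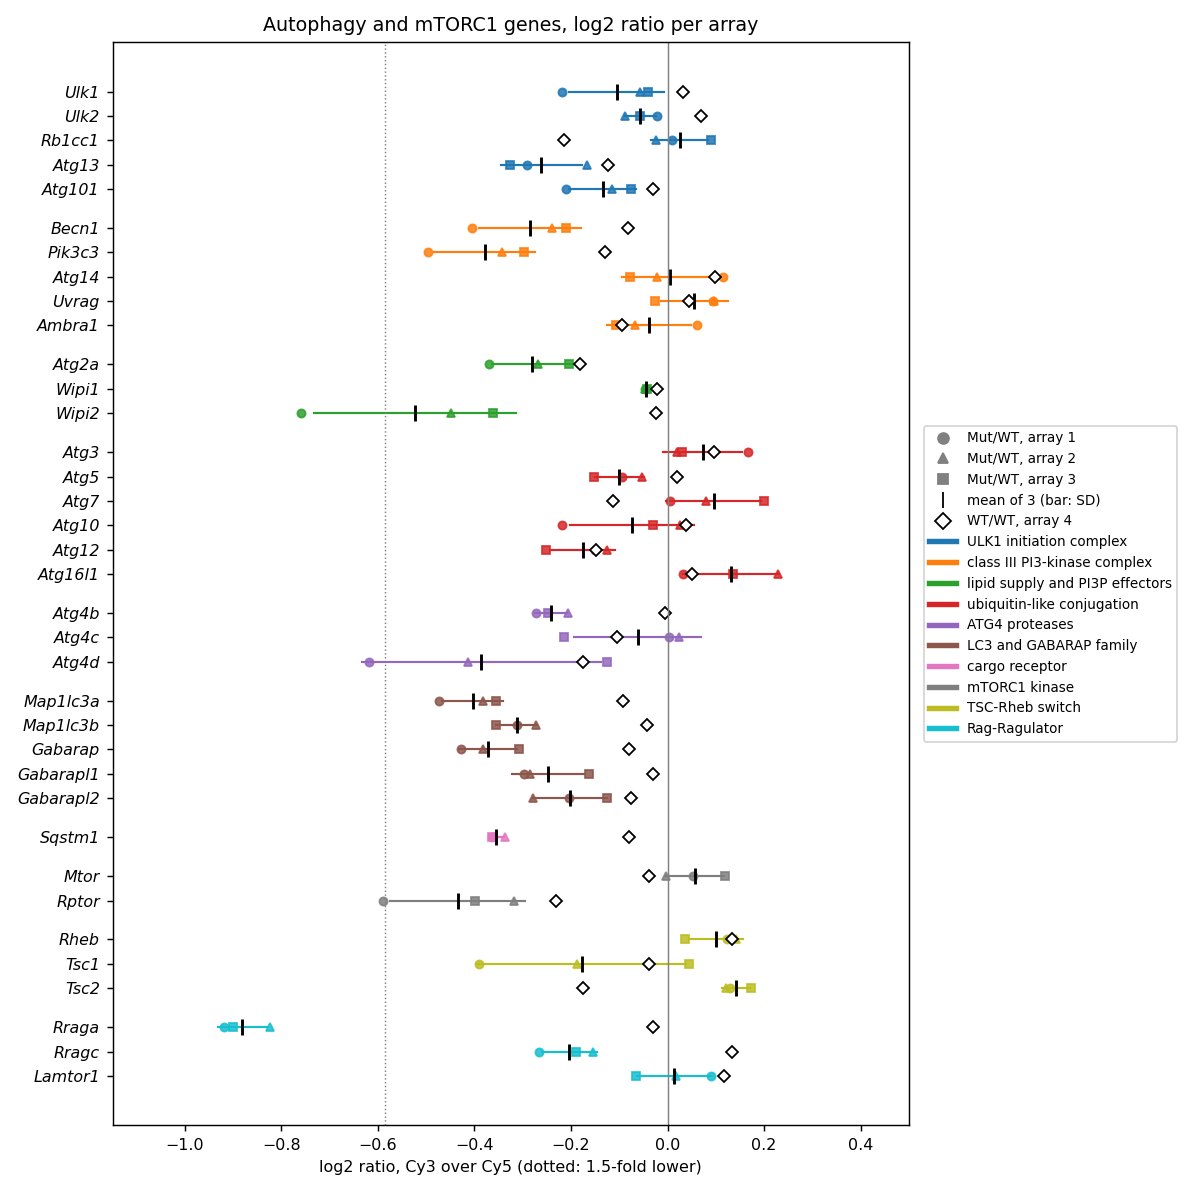
Log2 Cy3/Cy5 ratio of each of the 36 genes by its brightest probe, grouped and coloured by role; filled symbols are *Mut*/*WT* on arrays 1 to 3, the black tick and line their mean and SD, and the open diamond the *WT* vs *WT* array. *Rraga* lies at -0.82 to -0.92 on its 3 arrays with the *WT* vs *WT* array near 0, and the whole LC3 and GABARAP family lies to the left of its diamonds.

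*Rraga* encodes RagA, a small GTPase that, paired with RagC or RagD, brings mTORC1 to the lysosome when amino acids are present. Arrays 1, 2 and 3 gave log2 *Mut*/*WT* ratios of -0.92, -0.82 and -0.90 (mean -0.88, SE 0.052, n = 3, adjusted P = 1.03e-06, limma). The normalized log2 signal was 10.78, 10.49 and 10.52 in *WT* pools 1, 2 and 3 and 9.87, 9.67 and 9.62 in the *Mut* pools, so the groups lay far apart. On array 4, however, *WT* pool 1 in Cy5 gave 9.70 and *WT* pool 2 in Cy3 gave 9.67, both within the range of the *Mut* pools. The sample labelled *WT* pool 1 thus read 1.08 lower in the same dye on array 4 than on array 1, and the mean of the *Mut* pools lay 0.05 above *WT* pool 2 when both were read in Cy3. Over the named genes, 1.07% shifted by more than 1.5-fold between both readings of *WT* pool 1, and *Rraga* was the only member that did. The ratio within array 4 was near 0 (-0.03), so that a dye term left *Rraga* called, at -0.85 (adjusted P = 0.0025, limma). That both arrays held the same RNA, and that the channels of array 4 are as labelled, rests on the labels alone, and so do the dye term and every comparison with array 4. What sets the *WT* signals of arrays 1 to 3 apart from that of array 4 was not tested.

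*Rragc*, the partner GTPase RagC, fell by 0.20 on the log2 scale (SE 0.052, adjusted P = 0.0124, limma), at -0.27, -0.15 and -0.19 on the 3 arrays against 0.13 on the *WT* vs *WT* array. Its dimmer probe was at -0.51 (SE 0.073, adjusted P = 0.000374). Without array 1 or array 2 the brighter probe missed the threshold (adjusted P = 0.0624 and 0.0511). *Lamtor1*, which anchors Ragulator on the lysosomal membrane, did not pass: its ratios were 0.09, 0.02 and -0.07 (mean 0.01, SE 0.054), and its *Mut* and *WT* levels overlapped.

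*Rptor* encodes raptor, the subunit that presents substrates to mTOR and docks the complex on the Rag GTPases. It was at -0.59, -0.32 and -0.40 (mean -0.43, SE 0.061, adjusted P = 0.000297, limma), and at -0.23 between the *WT* pools. Its normalized log2 signal was 6.33, 6.41 and 6.52 in the *Mut* pools and 6.92, 6.72 and 6.92 in the *WT* pools. On none of the arrays did its *Mut* channel stand well above background, so the size of the fall is uncertain. The 1.35-fold lower signal on these normalized values is the estimate itself and not a lower limit. It is open to dye bias, and the value with the dye term was smaller (-0.20). *Mtor* itself did not pass, at 0.05, -0.0028 and 0.12 (mean 0.06, SE 0.053), and neither did *Rheb* at 0.10, with 0.13 on the *WT* vs *WT* array.

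The TSC genes gave no common direction. *Tsc2*, the GTPase-activating subunit that turns Rheb off, was at 0.13, 0.12 and 0.17, above its *WT* vs *WT* value of -0.18, and its *Mut* and *WT* levels did not overlap. In these values it had the highest mean of the 36 genes, 0.14 (SE 0.051, adjusted P = 0.0571, limma). *Tsc2* passed when only probes well above background were tested (adjusted P = 0.0346) and with the deposited log ratios (0.16, adjusted P = 0.0446). With the deposited log ratios it was not the highest, since *Atg7* was at 0.27. It was at -0.50 under median centring, a scaling under which all 36 members were lower. *Tsc1*, the scaffold of the complex, is held by 3 probes that went different ways. The brightest was at -0.39, -0.19 and 0.04 (mean -0.18, SE 0.073, adjusted P = 0.0883), at -0.29 without array 3, where it passed, and at -0.07 without array 1. The next was at 0.19, 0.15 and 0.26 (mean 0.20, SE 0.052, adjusted P = 0.0133), the only one of the 60 member probes that passed as higher, but it was also at 0.18 between the *WT* pools, and at 0.02 with the dye term. The dimmest, whose *Mut* channel stood well above background on none of the arrays, was at -0.10 and did not pass.

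The LC3 and GABARAP proteins are the ubiquitin-like tags that are joined to lipid on the autophagosome membrane. All 5 family genes were lower on all 3 arrays, with means of -0.20 to -0.40 and a median of -0.31, and the *Mut* and *WT* levels of each did not overlap. *Map1lc3a* was at -0.47, -0.38 and -0.35 (mean -0.40, SE 0.053, adjusted P = 0.000192, limma). Its normalized log2 signal was 9.03, 8.98 and 9.00 in the *WT* pools, 8.56, 8.60 and 8.65 in the *Mut* pools, and 8.79 and 8.69 in *WT* pools 1 and 2 on array 4. Every *Mut* pool of *Map1lc3a* therefore lay below every *WT* reading, by the least against *WT* pool 2 in the same dye.

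*Map1lc3b*, whose product LC3B is the usual marker of autophagosomes, was at -0.31, -0.27 and -0.36 by its brightest probe (mean -0.31, SE 0.052, adjusted P = 0.000875, limma). Its signal was 11.97, 12.11 and 12.08 in the *WT* pools and 11.66, 11.84 and 11.73 in the *Mut* pools, but 11.77 and 11.72 in *WT* pools 1 and 2 on array 4, inside the *Mut* range. A second probe of *Map1lc3b* fell further, at -0.69, -0.59 and -0.39 (mean -0.56, SE 0.063), with -0.22 between the *WT* pools. *Gabarap*, which with its relatives also serves late autophagosome maturation, was at -0.43, -0.38 and -0.31 (mean -0.37, SE 0.053, adjusted P = 0.000321). Its second probe gave -0.29, so both probes were lower.

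*Gabarapl1* was lower by 2 probes of unequal size. The brightest was at -0.30, -0.28 and -0.16 (mean -0.25, SE 0.054, adjusted P = 0.0047, limma). The dimmer was at -0.86, -0.68 and -0.39 (mean -0.64, SE 0.076, adjusted P = 0.000102) and was called, one of 3 member probes called lower, where 1.46% of all probes were called lower and 0.551% higher. Its signal was 7.97, 7.71 and 7.72 in the *WT* pools and 7.11, 7.03 and 7.33 in the *Mut* pools, with 7.65 and 7.39 on array 4, where its log2 Cy3/Cy5 was -0.25. With the dye term it was at -0.39 and no longer passed. *Gabarapl2* fell by 0.20 (SE 0.054, adjusted P = 0.0147), but its second probe, with a *Mut* channel above background on none of the arrays, was at -0.05 (adjusted P = 0.531).

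Without array 2, *Gabarapl1* and *Gabarapl2* missed the threshold, which left 3 of the 5 family genes, and 4 of 5 passed with the deposited log ratios. With the dye term, normexp without offset, median centring or the methods' *t*-test after adjustment 0 of the 5 passed, though all 5 stayed lower. Read in Cy3 against *WT* pool 2, 3 of the 5 genes were lower and 2 higher in the mean of the *Mut* pools, by -0.16 to 0.06. *WT* pool 1 read 0.16 to 0.25 lower on array 4 than on array 1 for the 5 genes, and for 4 of them it then lay nearer the *Mut* than the *WT* mean of arrays 1 to 3.

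*Sqstm1* encodes p62, the receptor that links ubiquitinated cargo to LC3 and is itself degraded by autophagy. Its log2 *Mut*/*WT* had the smallest SD of the 17 genes that passed as lower, at -0.36, -0.34 and -0.36 (mean -0.36, SD 0.016, SE 0.051, adjusted P = 0.000342, limma). The signal was 11.85, 11.71 and 11.66 in the *WT* pools and 11.49, 11.37 and 11.29 in the *Mut* pools, while *WT* pools 1 and 2 on array 4 read 11.37 and 11.29. *WT* pool 1 of array 4 thus lay within the *Mut* range and *WT* pool 2 at its lower end, and the mean of the *Mut* pools was 0.09 above *WT* pool 2 in the same dye.

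**Figure D2:**
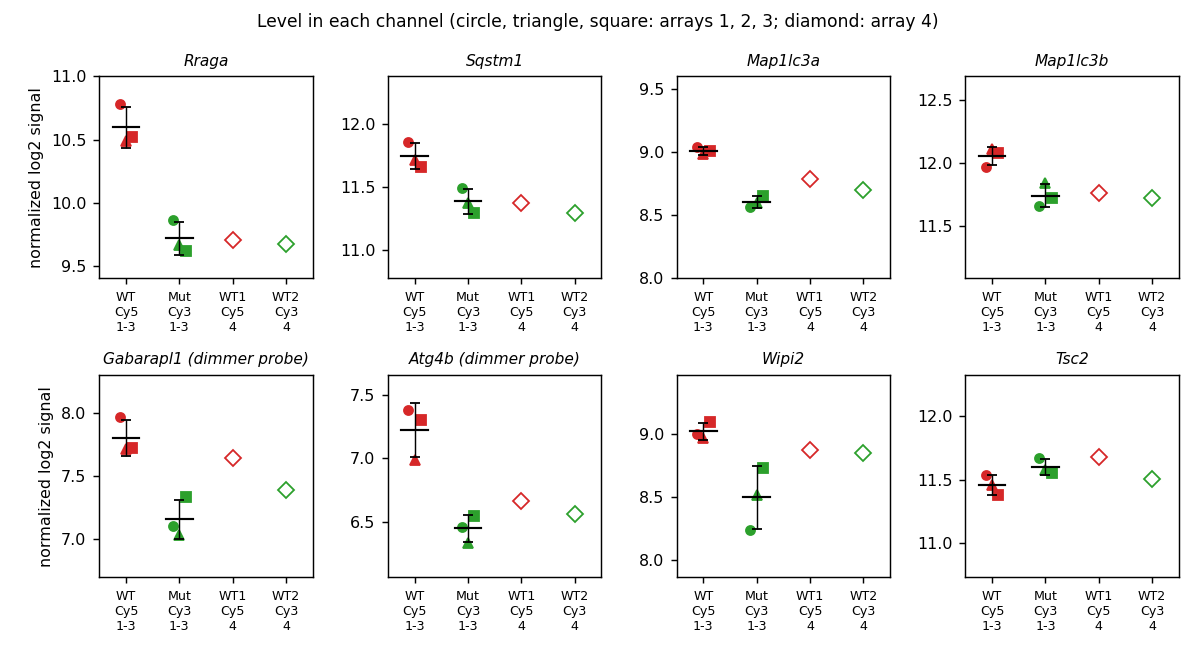
Normalized log2 signal of 8 probes in each channel: *WT* pools in Cy5 and *Mut* pools in Cy3 on arrays 1 to 3 (filled, with mean and SD) and *WT* pools 1 and 2 on array 4 (open); every panel spans the same range on its axis. For *Rraga*, *Sqstm1* and *Map1lc3b* both readings of array 4 lie at the *Mut* level, while for *Wipi2* they lie nearer the *WT* pools than the *Mut* mean.

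The ATG4 proteases trim LC3 and GABARAP before conjugation and free them afterwards. *Atg4b*, the main protease of the family, was measured by 2 probes, and the study singled this gene out on these same arrays. The brighter probe was at -0.27, -0.21 and -0.25 (mean -0.24, SE 0.051, adjusted P = 0.0041, limma), and the dimmer at -0.93, -0.65 and -0.76 (mean -0.78, SE 0.061, adjusted P = 6.59e-06) and was called. The *Mut* channel of the dimmer probe stood well above background on none of the arrays, so the size of its fall is uncertain. The 1.72-fold lower signal on these normalized values is the estimate itself and not a lower limit. The value with the dye term was smaller (-0.67, adjusted P = 0.0244, limma). *WT* pool 1 read 0.72 lower with this probe on array 4 than on array 1, and the *Mut* mean lay 0.11 below *WT* pool 2 in Cy3.

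*Atg4d* was at -0.62, -0.41 and -0.13 (mean -0.39, SD 0.25, SE 0.078, adjusted P = 0.0033, limma), the widest spread among the 36 genes. Its second probe, also well above background, was at -0.16 (adjusted P = 0.0636) and did not pass. On array 3 the brightest probe lay above its *WT* vs *WT* value of -0.18. Its signal was 7.59, 7.58 and 7.55 in the *WT* pools and 6.97, 7.16 and 7.43 in the *Mut* pools. *Atg4c* was at 0.0041, 0.02 and -0.21 and did not pass.

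*Wipi2* encodes the PI3P reader that recruits the conjugation machinery. It was at -0.76, -0.45 and -0.36 (mean -0.52, SE 0.071, adjusted P = 0.000254, limma), just short of 1.5-fold, and at -0.02 between the *WT* pools. Its signal was 8.99, 8.96 and 9.09 in the *WT* pools and 8.24, 8.52 and 8.73 in the *Mut* pools. *WT* pools 1 and 2 on array 4 read 8.87 and 8.84, above all 3 *Mut* pools, and the *Mut* mean was 0.35 below *WT* pool 2 in the same dye, the lowest such value of the 35 genes well above background in both channels. Without array 3 *Wipi2* was called, at -0.60. The second probe of *Wipi2* fell by 0.26. *Atg2a*, a lipid transfer protein that feeds the growing membrane, fell by 0.28 with both of its probes near that value (-0.28 and -0.27), and was at -0.18 between the *WT* pools. *Wipi1*, at -0.05, did not pass.

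The class III PI3-kinase complex was split. *Pik3c3*, the lipid kinase VPS34, was at -0.50, -0.34 and -0.30 (mean -0.38, SE 0.057, adjusted P = 0.000454, limma). Its signal was 7.63, 7.34 and 7.46 in the *WT* pools and 7.14, 7.00 and 7.16 in the *Mut* pools, with 7.42 and 7.29 on array 4, so that both array 4 readings lay above every *Mut* pool. *Becn1*, the scaffold beclin 1, fell by 0.28 (SE 0.057, adjusted P = 0.0029). *Atg14* at 0.0055, *Uvrag* at 0.06 and *Ambra1* at -0.04, which assemble with or regulate the complex, did not pass.

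In the ULK1 complex, which acts upstream, 1 of 5 genes passed. *Atg13*, its regulatory subunit, fell by 0.26 (SE 0.054, adjusted P = 0.0038, limma), at -0.29, -0.17 and -0.33. It was at -0.12 between the *WT* pools and at -0.14 with the dye term. *Ulk1* at -0.11, *Ulk2* at -0.06, *Rb1cc1* at 0.03 and *Atg101* at -0.13 did not pass, and the 6 probes of *Rb1cc1* lay between -0.06 and 0.11. The second probe of *Ulk2*, with a *Mut* channel well above background on no array, passed as lower at -0.18 (adjusted P = 0.0273).

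Of the ubiquitin-like conjugation genes, which serve the ATG12-ATG5-ATG16L1 complex and the loading of LC3, only *Atg12* passed. It was lower with all 3 of its probes (-0.18, -0.31 and -0.39). The brightest was at -0.15 between the *WT* pools and did not pass without array 2 or array 3 (adjusted P = 0.084 and 0.105, limma). *Atg5* was at -0.10 and *Atg10* at -0.07, and *Atg3* at 0.07, *Atg7* at 0.10 and *Atg16l1* at 0.13. *Atg16l1* was higher on all 3 arrays (0.03, 0.23 and 0.14) and passed without array 1 (0.18, adjusted P = 0.0474), while without array 2 it was at 0.08.

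How far probes of the same gene differed bears on all these values. Of the 36 genes 18 had several probes, and 12 had at least 2 well above background in both channels of arrays 1 to 3. Among these 12 the range of the log2 *Mut*/*WT* over such probes had a median of 0.22 and reached 0.40 in *Gabarapl1*. The probes of 14 genes had the same sign throughout, and those of *Rb1cc1*, *Atg14*, *Atg3* and *Tsc1* did not. The 3 probes called were the only probe of *Rraga* and the dimmer probes of *Atg4b* and *Gabarapl1*, so no call was shared by 2 probes of a gene.

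**Figure D3:**
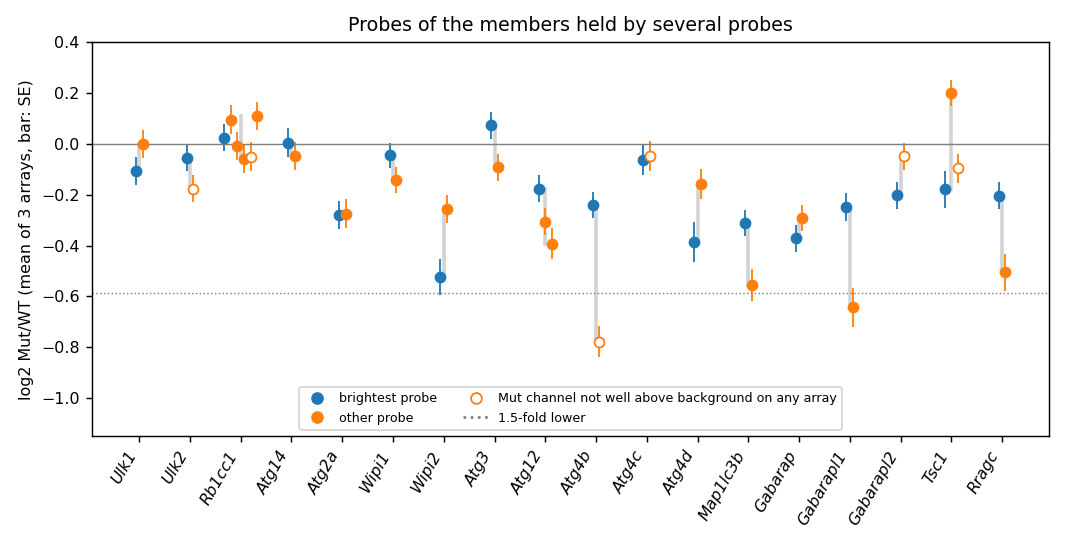
Mean log2 *Mut*/*WT* of 3 arrays with its SE for each probe of the 18 genes held by several probes; blue is the brightest probe, orange the others, and open symbols are probes whose *Mut* channel stood well above background on no array. In *Atg4b* and *Gabarapl1* only the dimmer probe, at -0.78 and -0.64, crosses the 1.5-fold line.

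The *WT* vs *WT* array gave a second contrast, in which the mean of the 3 *Mut* pools was set against *WT* pool 2, both in Cy3. It has 1 *WT* reading and no test, and it compares across arrays. In it 19 of the 36 genes were lower and 17 higher, with a median of -0.03, a range of -0.35 to 0.16, and 0 genes beyond 1.5-fold. Over the named genes 49.5% were lower in this contrast, with a median of 0.0014. Among the 17 genes that had passed as lower within arrays, 12 were lower and 5 higher, with a median of -0.09 in place of -0.31. These 17 were selected by low ratios that hold the same *Mut* readings, so neither the count nor the smaller median is a separate test. Beside *Wipi2*, *Atg4d* was at -0.28 and *Pik3c3* at -0.19. *WT* pool 1 on array 4 lay nearer the *Mut* than the *WT* mean for 20 of the 36 genes, a count given without its share over the named genes. The ratio within array 4, where no genotype differs, ran from -0.23 to 0.13 over the members with 0 beyond 1.5-fold, a median of -0.04 against 0.0007 over the named genes.

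**Figure D4:**
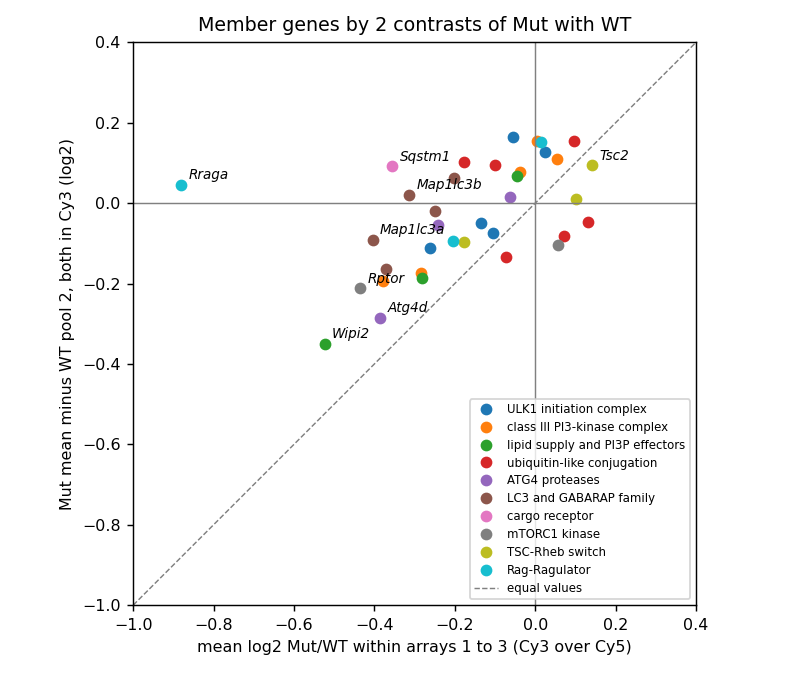
Each of the 36 genes by its mean log2 *Mut*/*WT* within arrays 1 to 3 (x) and by the mean of the *Mut* pools minus *WT* pool 2 in the same dye, across arrays (y); both axes are log2 and the dashed line marks equal values. *Wipi2* is low on both axes, at -0.52 and -0.35, while *Rraga* is at -0.88 and 0.05.

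Other genes of both pathways were taken from 2 lists. Of 35 further autophagy genes 32 were matched, and 11 (34.4%) passed as lower, 3 as higher and 0 were called (limma, 0 at an unadjusted P as well), with a median of -0.06. Of 51 further genes of mTORC1 and nutrient sensing 48 were matched, of which 16 (33.3%) passed as lower and 7 as higher, with a median of -0.06, and 5 (10.4%) were called, all lower. Beside both lists, 18.6% of the named genes passed as lower, 14.4% as higher and 1.59% were called lower. *Rragd*, which encodes RagD and so the alternative partner of RagA, was at -0.82, -0.79 and -0.76 (mean -0.79, SE 0.051, adjusted P = 1.85e-06, limma). *Flcn*, the folliculin gene, whose product acts on RagC and RagD, was at -0.70, -0.54 and -0.64 (mean -0.63, SE 0.054). *Ddit4*, which encodes the stress-induced mTORC1 inhibitor REDD1, was at -0.70, -0.60 and -0.81 (mean -0.70, SE 0.057). All of these 3 genes were near 0 on the *WT* vs *WT* array (0.02, 0.05 and 0.09) and were called with the dye term as well.

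As with *Rraga*, *WT* pool 1 read lower on array 4 than on array 1, with differences of -0.70 for *Rragd*, -0.79 for *Flcn* and -0.74 for *Ddit4*, and in Cy3 the *Mut* mean differed from *WT* pool 2 by -0.14, 0.03 and -0.08. The other 2 genes called did not show this size of shift. With the dye term *Akt1s1* was at -0.66 (adjusted P = 0.098, limma) and *Akt2* at -0.38 (adjusted P = 0.302), so neither passed. *Akt1s1*, which encodes the mTORC1 inhibitor PRAS40, was at -0.99, -0.79 and -0.44 (mean -0.74, SE 0.085), with a shift of -0.20 in *WT* pool 1 and a *Mut* mean 0.46 below *WT* pool 2 in the same dye. *Akt2*, a kinase upstream of TSC, was at -0.97, -0.71 and -0.45 (mean -0.71, SE 0.080), with a shift of -0.16 and a *Mut* mean 0.31 below, and was at -0.33 between the *WT* pools.

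The cells were checked against markers. All 7 nephron progenitor markers were well above background in both channels of arrays 1 to 3. Their summed linear signal was 10400 to 10900 in *Mut* and 10600 to 11000 in *WT*. Of these markers *Osr1* (-0.35), *Meox1* (-0.49), *Sall1* (-0.25) and *Six2* (-0.18) passed as lower and *Eya1* (0.31) as higher. The 5 markers of the differentiating nephron summed to 1520 to 1660 in *Mut* and 1180 to 1280 in *WT*, with 4 higher at the adjusted P, *Lhx1* (0.69) called, and sums of 1710 and 1740 in the *WT* pools of array 4. For *Lhx1*, *Jag1* and *Fgf8*, and for *Eya1*, the study gives the opposite direction. For *Lhx1*, *Jag1* and *Fgf8* it also reports lower RNA by RT-PCR in sorted *Mut* cells. Why the directions differ was not tested. The 5 stroma markers summed to 5640 to 6960 in *Mut* and 4650 to 4910 in *WT* (5590 in *WT* pool 2 and 4830 in *WT* pool 1 on array 4), with *Col1a1* (0.89) and *Col3a1* (0.78) called higher but at 0.43 and 0.27 between the *WT* pools and not past the test with the dye term (adjusted P = 0.0901 and 0.0832, limma), *Pdgfra* higher at 0.21, *Foxd1* lower at -0.30 and *Tbx18* at -0.12 not past the test. The 4 erythroid markers summed to 391 to 411 in *Mut* and 293 to 354 in *WT*, but to 409 and 418 in *WT* pools 1 and 2 on array 4, with *Hbb-y* (0.49) and *Alas2* (0.38) higher at the adjusted P and *Hba-x* well above background in neither channel of arrays 1 to 3. The 5 ureteric bud markers, the 4 endothelial markers and the only macrophage marker matched, *Adgre1*, did not pass. Many of these probes were dim, which limits what they can show. In both channels of all of arrays 1 to 3, 3 of the 5 ureteric bud and 0 of the 4 endothelial markers were well above background. *Adgre1* was well above background in *Mut* on no array. The part of these cells in the ratios of the autophagy and mTORC1 genes was not tested.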

How the data were processed

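RNA of sorted Six2+ cells was measured on 4 dual-colour Agilent arrays on 1 slide with a single scan. The deposited intensity values are the authors' Agilent Feature Extraction output per spot and channel, with local background, not normalized. The deposited log10 ratios (red over green) were made by the authors with the same program after background subtraction and dye normalization. The GeneSpring values were not analysed here.

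Median signals were background corrected with normexp (offset 50) and normalized by loess within arrays. Control and outlier spots were left out, spots of a probe averaged and ratios turned to Cy3/Cy5. Levels are log2 signals after Aquantile normalization. Ratios of arrays 1 to 3 were tested against 0 with limma 3.58.1 (lmFit, eBayes; R 4.3.3) without a filter on low values, and P values were adjusted by Benjamini-Hochberg over 41166 probes. The fit was checked on simulated data. The dye term takes array 4 as each probe's dye effect. It rests on that array alone, so P values with the dye term also reflect a lower precision. Symbols came from a GRCm38.p6 table (names only), for 22951 of 41174 probes. The pairing is given by the shared array.

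Members, roles and lists were chosen with earlier results of these data known. In full are given members with a called probe, with a brightest probe past the test by at least 0.3, or with probes of opposite direction of which 1 passed, and called genes of the lists. The highest and lowest level were not named, since probes differ in brightness. *Atg16l2*, *Epg5*, *Tecpr1*, *Lamtor4*, *Lamtor5*, *Fnip2*, *Cd68* and *Csf1r* were not matched. The result of 1 marker gene is not reported here. Alternatives covered the deposited ratios, the offset, median centring, outlier spots, dim probes, the dye term, unpaired channels, each replicate left out, the fold minimum, the adjustment, the methods' *t*-test and the median over probes.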

Additional observations from a re-analysis of the deposited data

How the results depend on the processing

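Of the 36 genes 7 changed sign under an alternative other than median centring, and 5 more under median centring alone, which set all 36 members lower and so fixed their sign. The 1 gene called lower (*Rraga*) became 0 with normexp without its offset (-0.90), with median centring (-1.48) and with the methods' *t*-test after Benjamini-Hochberg adjustment, settings under which no probe of the array was called, and 17 without the fold minimum. Leaving out a replicate gave 1 to 2 called genes (*Wipi2* added without replicate 3) and a member median of -0.15 to -0.10. Median centring moved that median to -0.63, and the median of the named genes to -0.19. At the adjusted P alone, under alternatives that for this count were chosen after seeing the data, the 17 lower genes were 8 with the deposited log ratios, 1 with the dye term and 0 with normexp without offset, median centring or the *t*-test, and the 0 higher genes were 1 with the deposited log ratios, 1 over probes well above background (both *Tsc2*) and 0 to 1 without a replicate (*Atg16l1*). With the deposited log ratios 1216 probes were called lower and 1489 higher in place of 600 and 227. *Rptor*, whose *Mut* channel stood well above background on no array, was then at -2.54, a size that is uncertain. *Pik3c3* was at -0.78 and *Atg4d* at -0.73, and none of these genes passed the adjusted P.

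Signs that turned were all of genes that had not passed the test. Under median centring they were *Rb1cc1* (-0.45), *Atg14* (-0.50), *Uvrag* (-0.50), *Atg3* (-0.40), *Atg7* (-0.0323), *Atg16l1* (-0.45), *Mtor* (-0.33), *Rheb* (-0.54), *Tsc2* (-0.50) and *Lamtor1* (-0.62). With the dye term they were *Atg14* (-0.0923), *Ambra1* (0.0553), *Atg3* (-0.0246), *Atg4c* (0.0419), *Rheb* (-0.0323) and *Lamtor1* (-0.10), and with the median over probes *Atg14* (-0.0207) and *Atg3* (-0.0099). Leaving out a replicate, *Rb1cc1* ran from -0.0072 to 0.0496, *Atg14* from -0.0494 to 0.047, *Atg4c* from -0.10 to 0.0137 and *Lamtor1* from -0.0235 to 0.0539. The causes were not tested. Without the pairing of channels on an array the calls were the same, 1 lower and 0 higher. Signal over background limits *Rptor* and the dimmer probe of *Atg4b*.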
